A study of Bos taurus with 6 samples.

Results

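The genes described are 6 enzymes of sulfate conjugation and detoxification from a list, made by the authors, of genes that differ between Angus and Luxi cattle in muscle. They are the sulfotransferases SULT1A1, SULT1C4 and LOC509792 (named by the authors as a gene like SULT1C2), the glutathione transferase GSTA3, the lactonase PON3 and the glyoxalase GLO1. They were chosen by symbol from the 232 genes of the authors' table, with the values of that table known, so their breed difference is a description and carries no test here. Angus cattle are kept for beef worldwide, and Luxi cattle are native to China. Muscle was sampled from 3 animals of each breed at 18 months of age, and RNA sequencing libraries were made from total RNA. The labels name the breed, the age and the tissue, but neither the muscle, the sex, the feeding nor any treatment of the animals, and breed is the single difference they give between the groups. Nothing in the labels says how the animals were related or kept, so herd or feed and breed cannot be told apart.

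Sulfotransferases move a sulfate group from the donor PAPS onto phenols, steroids, catecholamines and drugs, which makes most of them more soluble and easier to excrete. Alpha class glutathione transferases join glutathione to reactive compounds and to products of lipid peroxidation, paraoxonases hydrolyse lactones and limit lipid oxidation, and the glyoxalase pathway clears methylglyoxal, a reactive by-product of glycolysis. These pathways are best known from liver and gut.

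The deposited values are means over the 3 libraries of a breed, with no SD. RPKM is the read number scaled by gene length and library depth, so RPKM levels can be compared between genes. The reads of each library were recovered from the mean count and the mean RPKM, which together allow few whole-number divisions of a gene's reads over 3 libraries. Where 1 division was left the reads of each library are taken from it, and where several were left the range is given. The number of divisions says nothing on how likely each is. The libraries hold 5429317 to 5736365 reads in Angus and 5799071 to 6047228 in Luxi, and each is named by its depth rank within its breed (deepest, middle, shallowest), since no source used here ties a library to an animal. The table holds only genes that passed the authors' filter. Of 10 skeletal muscle fibre markers 0 were listed, so the tissue label could not be checked against them.

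In the authors' deposited table, 5 of the 6 genes had more RNA in Luxi muscle and 1, GLO1, in Angus muscle. Across all listed genes 36.6% were higher in Luxi and 63.4% in Angus, and since the members were picked from these values nothing is read from the count. In muscle as a whole, more cells of a type and more RNA per cell cannot be told apart. SULT1A1, LOC509792 and PON3 had reads in both breeds, at 3.17-fold, 3.05-fold and 3.04-fold higher means in Luxi, beside a median of 2.62-fold over the 63 listed genes that were above 0 in both breeds and higher in Luxi. SULT1C4 and GSTA3 had no reads listed in Angus, as did 9.48% of the listed genes. GLO1 had none in Luxi, as did 10.8%. Together 3 of the 6 members were at 0 in 1 breed, beside 20.3% of all listed genes. All 5 members higher in Luxi had a ratio of mean RPKM of at least 3 or no Angus reads, beside 45 of the 85 listed genes higher in Luxi (52.9%). PON3 lay close to that limit, at 2.99-fold by reads scaled to depth, and nothing is read from this count either.

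**Figure D1:**
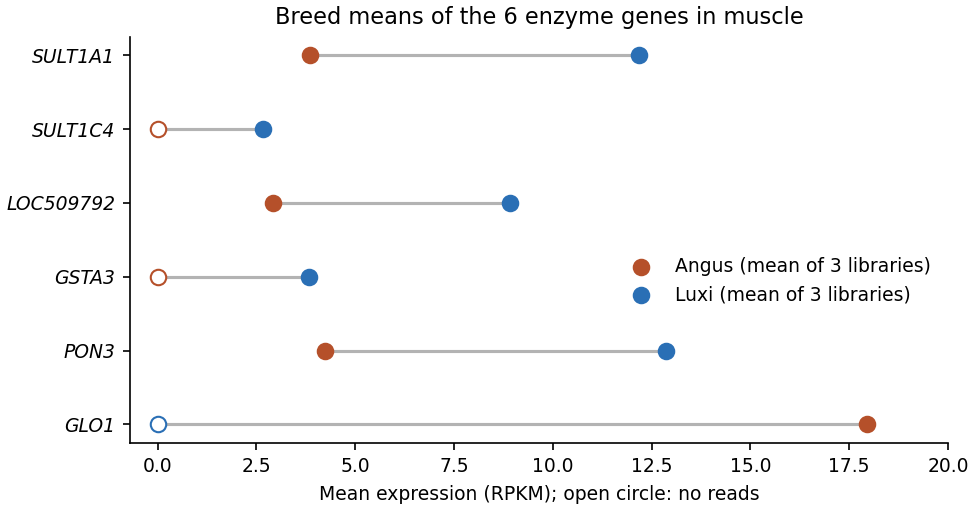
Mean expression in RPKM (horizontal axis) of the 6 enzyme genes in Angus (red) and Luxi (blue) muscle, each point the authors' mean of 3 libraries and each open circle a gene with no reads. PON3 and SULT1A1 lie near 12.9 and 12.2 RPKM in Luxi, and GLO1 at 17.96 RPKM in Angus is the one gene with the higher point in red.

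SULT1A1 (gene identifier 282485) is the main phenol sulfotransferase, which acts on small phenols, thyroid hormones and many drugs. The Angus libraries held 35, 31 and 25 SULT1A1 reads from the deepest to the shallowest, or 4.33, 3.95 and 3.27 RPKM. These 3 values lie close together, at 3.85 ± 0.538 RPKM (SD, n = 3 libraries). As a variance of the reads, their scatter was 0.587 times that of counting error alone, where 1 is the value for reads drawn at random. In Luxi the gene had 304 reads and a mean of 12.2 RPKM. Those reads could be divided in 20 ways, with 33 to 131 reads in the deepest library, 2 to 261 in the middle one and 10 to 171 in the shallowest. In 14 of the 20 divisions every Luxi library lay above every Angus library, and in the other 6 at least 1 did not. The ratio of the means was 3.17-fold (exact 95% interval 2.49 to 4.03, counting error only), with an FDR of 9.04e-08 in the authors' deposited table.

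Without any one Angus library the SULT1A1 ratio stayed between 2.94-fold and 3.38-fold higher in Luxi. Without the deepest Luxi library it was 2.75-fold to 4.25-fold, and without the shallowest 2.03-fold to 4.59-fold. Without the middle Luxi library the gene could be 4.72-fold higher in Luxi or 1.51-fold higher in Angus, so the direction was not determined there.

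LOC509792 (gene identifier 509792) is annotated as a sulfotransferase of the SULT1C group, enzymes known for sulfating certain phenols and N-hydroxy compounds. Its Angus libraries held 20, 16 and 31 reads, or 2.53, 2.08 and 4.14 RPKM, with a mean of 2.92 ± 1.08 RPKM (SD, n = 3 libraries). The shallowest Angus library was here the highest of its breed, whereas for SULT1A1 it was the lowest. In Luxi 217 reads gave a mean of 8.91 RPKM, and 5 divisions were left. From the deepest to the shallowest library these were 21, 163 and 33 reads, or 35, 126 and 56, or 49, 89 and 79, or 63, 52 and 102, or 77, 15 and 125. In the 3 divisions between the extremes every Luxi library exceeded every Angus library. In the first and the last, at least 1 Luxi library lay below the highest Angus library.

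The mean of LOC509792 was 3.05-fold higher in Luxi (exact 95% interval 2.32 to 4.08, counting error only), with an FDR of 2.31e-05 in the authors' deposited table. Whichever library was left out, it stayed higher in Luxi in every division. The ratio was 2.67-fold to 3.86-fold without an Angus library and 2.996-fold to 4.15-fold without the deepest Luxi library. It could drop to 1.14-fold without the middle Luxi library and to 1.90-fold without the shallowest.

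SULT1C4 (gene identifier 783020) is the other SULT1C entry. Its Luxi libraries held 11, 47 and 3 reads from the deepest to the shallowest, or 1.41, 6.20 and 0.402 RPKM, and the 3 Angus libraries 0. The middle Luxi library thus held 77.0% of the reads. All 3 Luxi libraries had reads and no Angus library did, but the shallowest Luxi library had only 3. The mean was 2.67 ± 3.10 RPKM in Luxi (SD, n = 3 libraries), an SD larger than the mean. A floor of 3 reads over the Angus libraries is 0.139 RPKM. Against it the Luxi mean was at least 19.2-fold higher, leaving out the counting error of the Luxi reads. Without the middle Luxi library that bound was 6.60-fold. The authors' deposited table gives an FDR of 5.90e-05.

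GSTA3 (gene identifier 777644) encodes an alpha class glutathione transferase, and the enzymes of this class also reduce lipid hydroperoxides. Its Luxi libraries held 48, 23 and 5 reads, or 7.20, 3.54 and 0.782 RPKM, and the Angus libraries 0, 0 and 0. The deepest Luxi library had 63.2% of the reads and the shallowest was far below it. The Luxi mean was 3.84 ± 3.22 RPKM (SD, n = 3 libraries). It was at least 23.9-fold higher than the Angus floor of 0.163 RPKM, and at least 13.4-fold without the deepest Luxi library, with an FDR of 2.68e-06 in the authors' deposited table. For both genes, leaving out an Angus library lowers the bound by construction, to 12.6-fold to 13.0-fold for SULT1C4 and 15.7-fold to 16.2-fold for GSTA3, since the floor then spans fewer reads.

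GSTA3 and SULT1C4 were the 2 members whose breeds were apart in every division, beside 25.4% of the listed genes. With 0 Angus reads this follows from reads in every Luxi library, and most listed genes had reads in both breeds, so the shares are not alike. The highest library differed between them, the deepest for GSTA3 and the middle one for SULT1C4, and the shallowest Luxi library was the lowest for both. The variance of their reads over the Luxi libraries was 17.4 and 27.1 times that of counting error. In Angus the same measure was 0.587 for SULT1A1, 3.06 for LOC509792 and 26.5 for PON3, with PON3 in Angus close to SULT1C4 in Luxi. Both are among the 15 genes higher in Luxi with a single division of their Luxi reads. Over these 15 the top library held a median of 63.2% of the reads, with a range of 37.3% to 91.4%. That median is the share of GSTA3 itself, and nothing follows for genes with several divisions. The share of SULT1C4 was exceeded by 4 of the 15 and that of GSTA3 by 7. Among the 22 listed genes at 0 in Angus, GSTA3 ranked 11 and SULT1C4 17 by Luxi reads, with 76 and 61 reads beside a median of 73 and a lowest of 51.

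**Figure D2:**
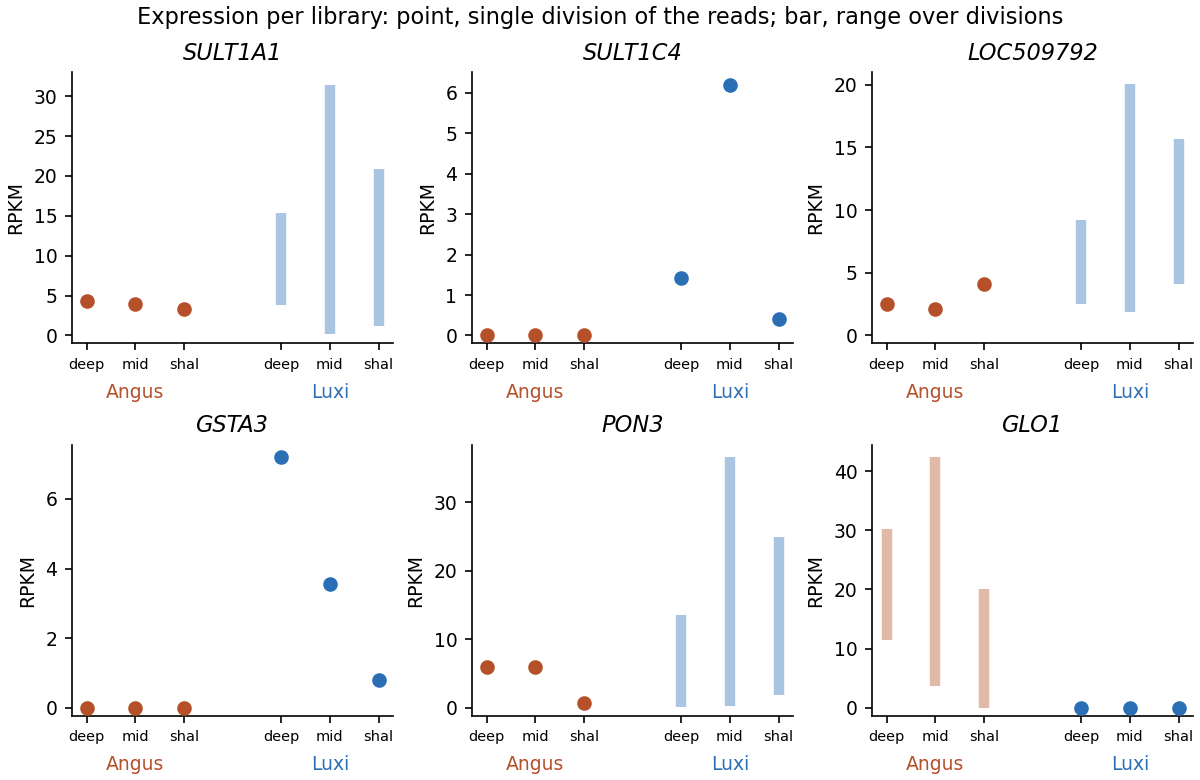
Expression in RPKM (vertical axes) per library for each of the 6 genes, with the deepest, middle and shallowest library of Angus (red) and Luxi (blue); points are single values and bars the range over all divisions of the reads. The Angus values of SULT1A1 lie within 3.27 to 4.33 RPKM, and the shallowest Luxi library is the lowest for both SULT1C4 and GSTA3.

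PON3 (gene identifier 510953) encodes a paraoxonase that hydrolyses lactones, including those of statin drugs, and is carried on high-density lipoprotein. Its Angus libraries held 77, 75 and 9 reads from the deepest to the shallowest, or 5.98, 5.99 and 0.739 RPKM. The deepest and the middle library were almost equal and the shallowest was far below them. The Angus mean was 4.24 ± 3.03 RPKM (SD, n = 3 libraries). The variance of the Angus reads was 26.5 times that of counting error. In Luxi 510 reads gave 12.9 RPKM and left 54 divisions, with 1 to 183 reads in the deepest library, 3 to 484 in the middle one and 25 to 324 in the shallowest. The shallowest Luxi library, at 1.92 RPKM or more, lay above the lowest Angus library in every division. In 20 of the 54 divisions every Luxi library exceeded every Angus library.

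The PON3 mean was 3.04-fold higher in Luxi (exact 95% interval 2.50 to 3.59, counting error only), with an FDR of 4.98e-12 in the authors' deposited table. The ratio was 2.15-fold without the shallowest Angus library and 3.82-fold or 3.83-fold without either of the others. Without the deepest Luxi library it was 2.965-fold to 4.55-fold higher in Luxi, and without the shallowest 1.62-fold to 4.33-fold. Without the middle Luxi library it lay anywhere from 4.53-fold higher in Luxi to 4.25-fold higher in Angus. Of the 3 genes with reads in both breeds, PON3 was therefore the one with the most open division over its libraries.

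**Figure D3:**
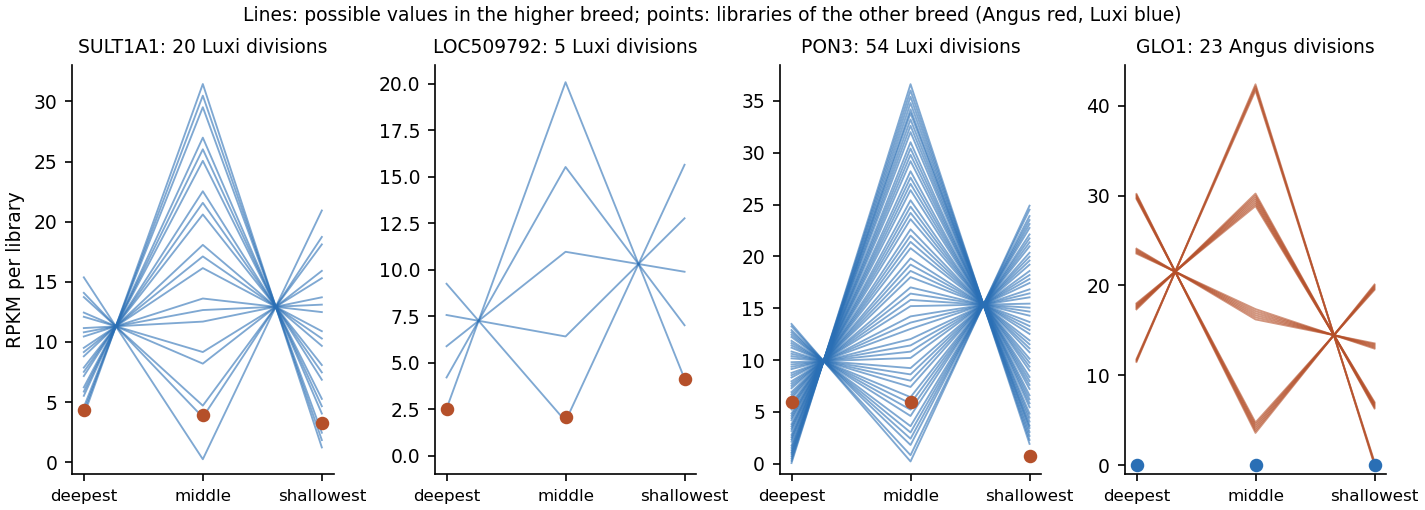
Possible RPKM per library (vertical axes) in the breed with the higher mean, each line joining the 3 values of 1 division of the reads, for SULT1A1, LOC509792 and PON3 in Luxi (blue) and GLO1 in Angus (red); points are the libraries of the other breed, placed by depth rank and not paired with those above. The 5 lines of LOC509792 span 1.85 to 20.1 RPKM in the middle Luxi library, and a high middle library goes with low values in the other 2.

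GLO1 is listed under gene identifier 782856 and was the one member higher in Angus. Glyoxalase I joins methylglyoxal and glutathione into a thioester, the first step of methylglyoxal removal. The entry had 468 reads in Angus, a mean of 17.96 RPKM, and 0 reads in each Luxi library. Its Angus reads could be divided in 23 ways, with 102 to 268 reads in the deepest library, 31 to 366 in the middle one and 0 to 169 in the shallowest. In 22 of the 23 all Angus libraries had reads, and in the remaining one the shallowest had 0. At least 2 Angus animals thus had reads of this entry and no Luxi animal did. Against 3 reads over the Luxi libraries, or 0.109 RPKM, the Angus mean was at least 165-fold higher. Without the middle Angus library the bound lay between 54.0-fold and 231-fold, and without any one Luxi library between 109-fold and 111-fold, since the floor then spans fewer reads. The authors' deposited table gives an FDR of 2.34e-47. Among the 25 listed genes at 0 in Luxi, GLO1 ranked 3 by Angus reads, against a median of 74 reads.

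Several of these entries carry names that differ from those in a newer gene table. In the RefSeq gene table for ARS-UCD2.0, SULT1A1 and PON3 keep identifier and symbol. Identifier 777644, the GSTA3 entry, is named GSTA1 there and lies between GSTA2 and GSTA5, while the symbol GSTA3 belongs to identifier 768055. Identifier 783020, the SULT1C4 entry, is LOC783020 there, a neighbour of SULT1C2, with SULT1C2 and SULT1C4 as synonyms, and the symbol SULT1C4 belongs to identifier 537919. The GLO1 entry and LOC509792 have no match by identifier, and the symbol GLO1 belongs to identifier 540335. None of the identifiers 768055, 537919 and 540335 is among the listed genes. The values given for GSTA3, SULT1C4 and GLO1 thus refer to the entries as the authors counted them, and the level of the gene that now bears each symbol was not analysed here.

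The distinction bears on genes at 0, because close copies can share reads and no source used here gives the rule for reads that match several genes. Of the 28 listed entries with a gene identifier and 0 reads in 1 breed, 6 (21.4%) had no match in the RefSeq table, GLO1 among them. Of the 135 with reads in both breeds 9 (6.67%) had none, LOC509792 among them. Whether reads were divided between copies was not tested. Summing the reads of SULT1C4 and LOC509792 removes any exchange between that pair: they had 278 reads in Luxi and 67 in Angus, 3.92-fold higher in Luxi (exact 95% interval 2.99 to 5.19, counting error only). With SULT1A1 added the sums were 582 and 158 reads, 3.48-fold higher in Luxi (2.91 to 4.17). Both sums were chosen after the values were seen, and each entry in them was already higher in Luxi. Exchange with copies that are not listed was not analysed.

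Ordered by level, the members ran PON3 (12.9 RPKM), SULT1A1 (12.2), LOC509792 (8.91), GSTA3 (3.84), SULT1C4 (2.67) and GLO1 (0) in Luxi. In Angus they ran GLO1 (17.96 RPKM), PON3 (4.24), SULT1A1 (3.85) and LOC509792 (2.92), with GSTA3 and SULT1C4 at 0. In Angus, PON3 was above SULT1A1 and SULT1A1 above LOC509792 in the deepest and the middle library. In the shallowest the order was reversed (0.739, 3.27 and 4.14 RPKM), so it differed between libraries. SULT1A1 and LOC509792 held only 25 and 31 reads there. In Luxi, GSTA3 was above SULT1C4 in the deepest and the shallowest library and below it in the middle one (3.54 and 6.20 RPKM). In the shallowest, GSTA3 and SULT1C4 held only 5 and 3 reads. The order of the 3 higher genes in Luxi rests on means whose spread is not determined. Among all 232 listed genes, PON3 and SULT1A1 ranked 71 and 73 by Luxi level, LOC509792 96, GSTA3 147 and SULT1C4 162, and GLO1 ranked 72 by Angus level.

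**Figure D4:**
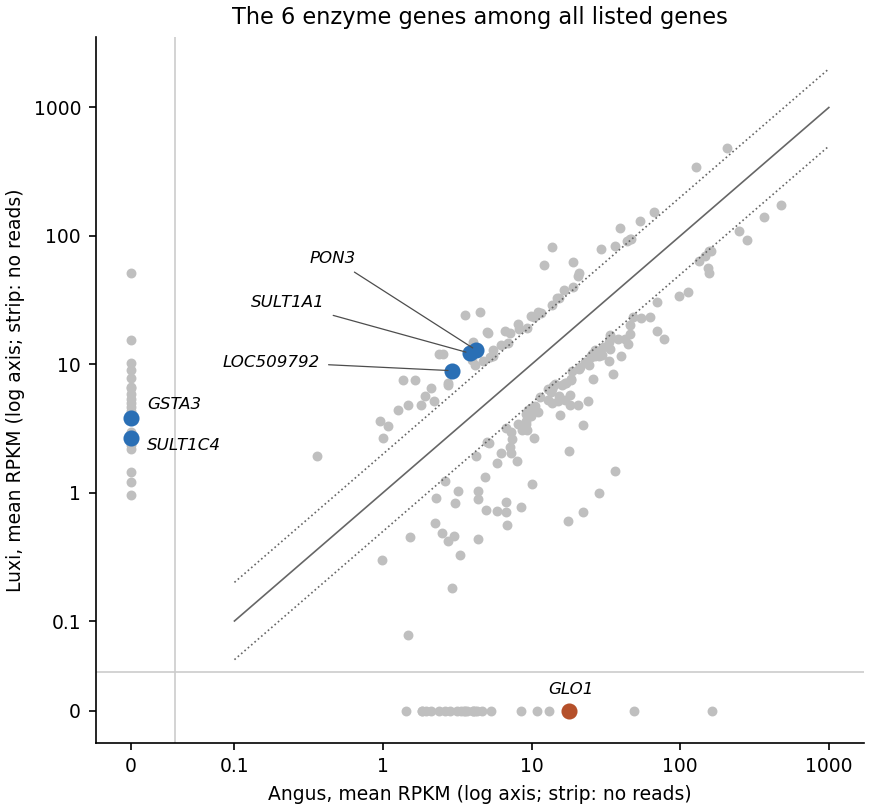
Mean RPKM in Luxi (vertical, log axis) against mean RPKM in Angus (horizontal, log axis) for the 232 listed genes, with the strips at the left and the bottom for genes with no reads in 1 breed; the solid line marks equal levels and the dotted lines a 2-fold ratio. SULT1A1, PON3 and LOC509792 (blue) lie together between 2.92 and 4.24 RPKM in Angus, GSTA3 and SULT1C4 in the left strip and GLO1 (red) in the bottom strip.

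The 3 ratios of SULT1A1, LOC509792 and PON3 lie close together, LOC509792 and PON3 only 0.0076 apart on the log2 scale. The listed genes with a symbol and the nearest ratio of breed means, other than these members, were GABPB2, a subunit of a transcription factor (3.12-fold), the secreted pattern recognition protein PTX3 (3.26-fold), the hyaluronan-binding protease HABP2 (3.05-fold) and the neuronal pentraxin NPTX1 (2.97-fold). The likeness is over 2 breed means only. Over the libraries it was not determined for GABPB2 and NPTX1, whose Luxi reads left 5 and 4 divisions, nor among the members themselves. In Luxi, from the deepest to the shallowest library, PTX3 held 148, 6 and 8 reads and HABP2 153, 7 and 13. The deepest Luxi library of LOC509792 held at most 77 of 217 reads, and that of PON3 at most 183 of 510.

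Apart from direction, 5 of the 6 members share an annotation. A biological process is given for 130 genes in the authors' deposited table, and 6 of them carry sulfur metabolic process: SULT1A1, SULT1C4, LOC509792, GSTA3, GLO1 and ALDH5A1. PON3 does not carry it. Of these 6 genes 5 were higher in Luxi, beside 36.6% of all listed genes, and 1, GLO1, in Angus. Since 5 of the 6 are members picked from these values, nothing is read from the direction.

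The surrounding pathways had few listed genes. Lists of 266 genes in 10 groups, covering conjugation, sulfate supply, glutathione, carbonyl removal, phase 1 oxidation, antioxidants and glycolysis, held 15 listed genes, the 6 members included. Of the other 9, 7 were higher in Luxi and 2 in Angus, beside 36.6% and 63.4% of all listed genes. The lists were drawn up with earlier results of these data known, so nothing is read from this count. The list of 27 genes of glutathione synthesis and recycling and that of 33 antioxidant genes and NRF2 targets had 0 listed genes each. Of the RefSeq genes with a SULT symbol or identifier 783020, 2 of 11 were listed, both higher in Luxi. Of alpha class glutathione transferases 1 of 5 was listed, and of paraoxonases 1 of 3. A gene outside the table did not pass the authors' filter or was not analysed here, and nothing follows for its level.

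ARSG, a lysosomal sulfatase that removes sulfate groups, stood at 1.64 RPKM in Angus in the authors' deposited table and was 4.63-fold higher in Luxi (7.61 RPKM). Its Angus libraries held 22, 24 and 31 reads, and the shallowest Luxi library alone held 152 to 285 of the 375 Luxi reads. ALDH5A1, which oxidises succinate semialdehyde, was 2.34-fold higher in Luxi at 5.16 against 2.20 RPKM in that table, with 41, 23 and 41 Angus reads. CBR4, a mitochondrial carbonyl reductase, was 2.11-fold higher in Luxi and the efflux pump ABCC1, which exports glutathione conjugates, 2.09-fold. Both glycolytic genes listed were higher in Luxi, HK2 (hexokinase 2) 2.21-fold and PFKFB4, which sets a signal for glycolytic flux, 2.32-fold.

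Phase 1 enzymes, which oxidise compounds before conjugation, went both ways. CYP1A1, the cytochrome P450 induced through the aryl hydrocarbon receptor, had 824 Luxi and 289 Angus reads and was 2.71-fold higher in Luxi by RPKM. AOX1, an aldehyde oxidase, was 2.55-fold higher in Angus, with a Luxi mean of 11.7 RPKM and an Angus mean of 29.8 RPKM. CYP4F2, a fatty acid hydroxylase, had no Luxi reads, and 2, 67 and 61 reads over the Angus libraries from the deepest to the shallowest. The lowest of its Angus libraries was thus the deepest, whereas for PON3 it was the shallowest. All these values are means of the authors' deposited table, and for CBR4, ABCC1, HK2, PFKFB4, CYP1A1 and AOX1 the division of the reads over the libraries was not determined.

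Markers of other cell types in the table, from lists made with earlier results known, were all higher in Angus (all listed genes, 63.4%). They were 2 of 8 adipocyte markers (ADIPOQ and CIDEC), 3 of 5 mast cell markers (TPSB1, CPA3 and KIT) and 2 of 5 epithelial markers (KRT8 and KRT19). The means in Angus and then Luxi were 15.1 and 5.14 RPKM for ADIPOQ, 3.70 and 0 for CIDEC, 3.31 and 0.329 for TPSB1, 4.32 and 0.894 for CPA3, and 2.25 and 0.581 for KIT. KRT8 stood at 6.74 and 0.839 RPKM and KRT19 at 4.89 and 1.33. In Angus the shallowest library, the lowest for PON3, was also the lowest for CIDEC (56, 31 and 3 reads from the deepest to the shallowest), KRT8 (106, 86 and 23) and KRT19 (51, 61 and 4). The mast cell markers had their lowest value in the middle Angus library instead, with 51, 4 and 12 reads for TPSB1, 77, 10 and 32 for CPA3, and 12 to 14 reads in that library for KIT. For ADIPOQ the lowest Angus library was not determined. Markers of hepatocytes (0 of 9), endothelium (0 of 5), fibroblasts (0 of 6), macrophages (0 of 5) and blood (0 of 4) were not among the listed genes. The listed markers lie on the side of GLO1 and opposite to the other 5 members, and their part in either was not tested.

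**Figure D5:**
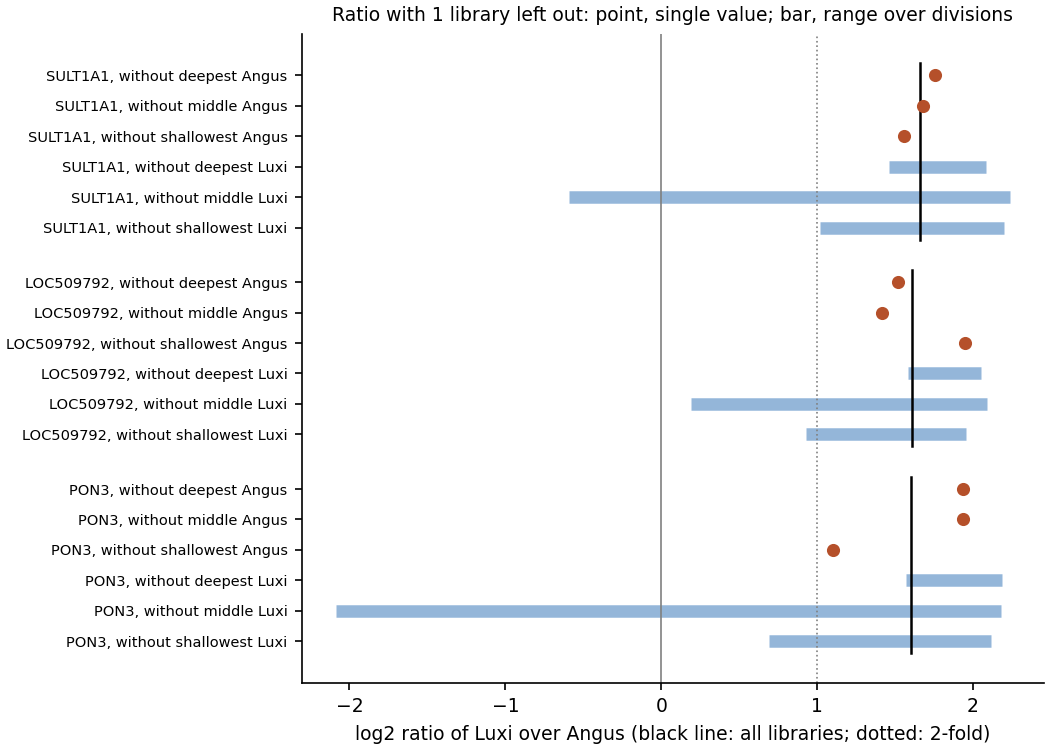
Log2 ratio of Luxi over Angus (horizontal axis) of SULT1A1, LOC509792 and PON3 with 1 library left out per row; points are single values, bars the range over all divisions of the reads, black lines the ratio with all libraries and the dotted line 2-fold. The bars without the middle Luxi library cross 0 for SULT1A1 and PON3 and stay above 0 for LOC509792.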

How the data were processed

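RNA sequencing libraries of muscle from 3 Angus and 3 Luxi cattle were analysed from 1 deposited table of 232 genes. Per the file headers, the authors deposited for each gene a mean read count and an RPKM per breed, the log2 ratio of Luxi over Angus, a p-value and an FDR. Every mean count was a whole multiple of 1/3 (to 0.001 reads after multiplication by 3, where 6 digits resolve it), and an RPKM of 0.001 was deposited in place of 0. The aligner, gene set, genome build, strandedness and test were not given in the sources used here.

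Depths were found as those for which every gene with up to 3000 reads had a whole-number division over 3 libraries that meets its mean count and its RPKM to 6 digits. In each breed 1 set remained, with bounds on its depths of 5.3 to 10.0 reads (4 standard errors). It left a single division for 74 of 200 Angus and 54 of 201 Luxi genes. The search was tested on simulated tables, not all of which left a single depth set. It used Python 3.11.15, numpy 2.4.6 and numba 0.67.0, and intervals used scipy 1.17.1 (exact Clopper-Pearson, conditional on a gene's reads, at 95%). Intervals and floors of 3 reads span counting error only: PCR copies of a molecule cannot be told from separate molecules here. Bounds against a floor take the mean of the breed with reads as it stands, without its counting error.

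The deposited p-value was recomputed as a doubled tail of the Audic-Claverie test on truncated breed means. It came within 5% for 121 of 130 genes with a p above 1e-10 and for 4 of 4 such members. PON3 and GLO1 had a smaller deposited p, and the recomputed value was 0.581 times the deposited one for PON3 and 1.02 times for GLO1. That test takes no account of the spread between animals. The members and lists were chosen with earlier results of these data known. Named genes are all members, all listed genes of the lists and, for each member with reads in both breeds, the 3 with the nearest ratio. Alternatives were other scales, pseudocounts, limits and each library left out. Unused columns of values per sample numbered 0.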

Additional observations from a re-analysis of the deposited data

How the results depend on the processing

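With each library left out in turn, the log2 ratio of Angus over Luxi ranged over all divisions of the reads from -2.24 to 0.59 for SULT1A1 (-1.66 in full), from -2.09 to -0.19 for LOC509792 (-1.61), and from -2.19 to 2.09 for PON3 (-1.60). These positive values came without the middle Luxi library, where 3 of the 5 members higher in Luxi were sure to stay so, against 5 without any other library. The bounds of the genes at 0 in 1 breed ranged from -4.76 to -2.72 for SULT1C4 (-4.26 in full), from -5.05 to -3.74 for GSTA3 (-4.58) and from 5.75 to 7.93 for GLO1 (7.37). A pseudocount of 1 RPKM gave them -1.88, -2.28 and 4.25, closer to 0 by construction. At an FDR of at most 1e-05, 3 of the 5 were left. Unscaled counts, counts over depth, a pseudocount of 0.1 RPKM, a ratio of at least 3 and a mean count of at least 10 kept every direction and, for the ratios, stayed within counting error. Depth limits the genes at 0: a level of under 3 expected reads over a breed can still give 0 reads. No paired analysis was made, because the labels pair no Angus animal with a Luxi animal.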
